A study of Rattus norvegicus with 24 samples.

Results

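Potassium perchlorate was added for 1 day to the drinking water of rats that had already eaten an iodine-deficient diet for 2 months, and thyroid transcripts were compared with those of rats on the same diet with normal water. The comparison rests on 6 of the 24 arrays of the series, chosen by their titles: 3 from iodine-deficient diet with perchlorate water at day 1 (replicates 2, 3 and 6) and 3 from iodine-deficient diet with normal water at day 1 (replicates 8, 9 and 12). All rats were adult male Sprague-Dawley, and the perchlorate water held 95 mg of the potassium salt per liter. Other arrays, 3 in each group, served for comparison: perchlorate water with normal diet at day 1, normal water with normal diet at day 1 (control), and the same 4 treatments at day 14. Nothing in the labels tells whether the 3 samples of a group are 3 animals. The p-values therefore cover the spread among these samples alone, and that spread may be technical.

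Thyroid follicular cells take up iodide from blood through the sodium iodide symporter, oxidise it with hydrogen peroxide and attach it to thyroglobulin, from which thyroid hormone is later released. Perchlorate competes with iodide at the symporter. Falling thyroid hormone raises pituitary thyrotropin (TSH), which acts on the follicular cell through its receptor and cyclic AMP and stimulates iodide uptake, hormone synthesis and gland growth. Too little dietary iodine limits hormone synthesis from the supply side, so the comparison asks what a sudden block of uptake adds when iodide is already scarce.

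Each value below is the log2 of a probe set's intensity plus 16 after quantile normalization, and a probe set is a group of short probes for 1 transcript. A log2 fold change is the mean of the 3 diet plus perchlorate arrays minus the mean of the 3 diet arrays, so that 1 is a doubling, and SE is its standard error in the limma model. For genes measured by more than 1 probe set the brightest is given. Calls were made at 0.05 on limma's p-values after Benjamini-Hochberg adjustment over 31042 probe sets. Between arrays of the same group, the Pearson correlation (a description across probe sets) ran from 0.973 to 0.980 (6 pairs, median 0.975), and those between the diet plus perchlorate and diet groups from 0.970 to 0.979 (9 pairs, median 0.978). The arrays of the pair of groups were therefore no more alike within a group than between the groups. Among the 24 arrays, perchlorate replicate 18 of day 1 on the normal diet stood apart, whose probe sets differed from the median of the other arrays by a median of 0.523, against 0.155 to 0.282 for the rest, of which control replicate 22 was the highest. Neither belongs to the 6 arrays compared, but both enter the shared estimate of the spread, and results are given without them where they matter.

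Adding 1 day of perchlorate to the deficient diet changed very little that passed the test. Of 31042 probe sets, 1 was called (0.00322%), and it was lower in the diet plus perchlorate arrays. At an unadjusted p under 0.05 there were 1697 probe sets (5.47%), 798 of them higher (2.57%) and 899 lower (2.9%). The typical shift was small: the median of all absolute log2 fold changes was 0.17, against a median SE of 0.25. A log2 fold change over 1 in size was measured for 106 probe sets that were higher and 57 that were lower. Leaving perchlorate replicate 18 and control replicate 22 out of the fit raised the count of calls to 38, with 14 higher and 24 lower. In bulk tissue, fewer cells of a type and less RNA per cell cannot be told apart.

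The called gene was Mta1, a subunit of the nucleosome remodelling and deacetylase complex. Its signal was 5.39, 4.98 and 5.64 in the diet plus perchlorate arrays, against 7.11, 6.80 and 6.80 in the diet arrays. All 3 diet plus perchlorate values lay below every diet value. The gene fell by 1.57 on the log2 scale (SE 0.22, adjusted p = 0.014, limma), a 2.97-fold difference. It is a dim probe set, at the 43.9th percentile of mean signal, and its deposited intensities were 25.8, 16.9 and 33.6 with diet plus perchlorate and 113, 102 and 96.5 with diet. A still dimmer Mta1 probe set gave -0.04 (SE 0.13, adjusted p = 1.00). The call ended under 6 of 16 alternatives, among them leaving out diet plus perchlorate replicate 3 (adjusted p = 0.211) or diet replicate 8 (0.113) or 9 (0.0773). In the other 6 groups the same probe set lay between 6.07 and 6.87.

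The sodium iodide symporter gene Slc5a5 stood at the same level in both groups. Its signal was 11.94, 12.07 and 12.03 with diet plus perchlorate, against 12.18, 12.19 and 11.73 with diet alone. The diet plus perchlorate values lay inside the range of the diet values. The log2 fold change was -0.02 (SE 0.19, 95% interval -0.42 to 0.37, adjusted p = 1.00), and an exact two-sided permutation test gave p = 1, where 3 arrays against 3 cannot go below 0.1. On the normal diet at day 1 the gene read 11.51, 11.98 and 12.19 with perchlorate and 10.66, 10.70 and 11.09 in controls, a difference of 1.07 with no overlap that did not pass (adjusted p = 0.147, limma). The diet without perchlorate differed from control by 1.22 (adjusted p = 0.0233), a comparison that shares the diet arrays and called 6 probe sets in all (0.0193%). The test of whether the perchlorate difference depends on the diet gave an adjusted p of 0.39. At day 14, perchlorate differed from no perchlorate by 0.69 on the deficient diet (adjusted p = 0.23) and by 1.52 on the normal diet (adjusted p = 0.000157). Those comparisons called 19 (0.0612%) and 524 (1.69%) of all probe sets.

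Among the named genes that were higher, Itih3 had the largest fold change. Its product is an inter-alpha-trypsin inhibitor heavy chain, a serum protein that binds hyaluronan. It measured 10.17, 10.89 and 11.19 with diet plus perchlorate, against 9.44, 9.06 and 9.06 with diet alone, with all 3 diet plus perchlorate arrays above the diet arrays. The gene was named partly for this absence of overlap. The log2 fold change of 1.56 (SE 0.28, 2.95-fold) did not pass (adjusted p = 0.135). It passed under 3 of 16 alternatives: without perchlorate replicate 18 and control replicate 22 (adjusted p = 0.0422), with array quality weights (0.0235) and without diet plus perchlorate replicate 2 (0.0486). Over all 16 the adjusted p ran up to 0.439. At day 1 on the normal diet it stood at 7.01, 7.41 and 7.39 with perchlorate and 6.96, 6.88 and 7.19 in controls, so the perchlorate and control ranges overlap there. At day 14 on the deficient diet it measured 13.26, 13.19 and 13.39 with perchlorate, against 11.20, 11.65 and 10.25 without it. That difference of 2.25 passed (adjusted p = 0.00146), as did the 5.40 between perchlorate and control on the normal diet at day 14 (adjusted p = 3.41e-10).

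**Figure D1:**
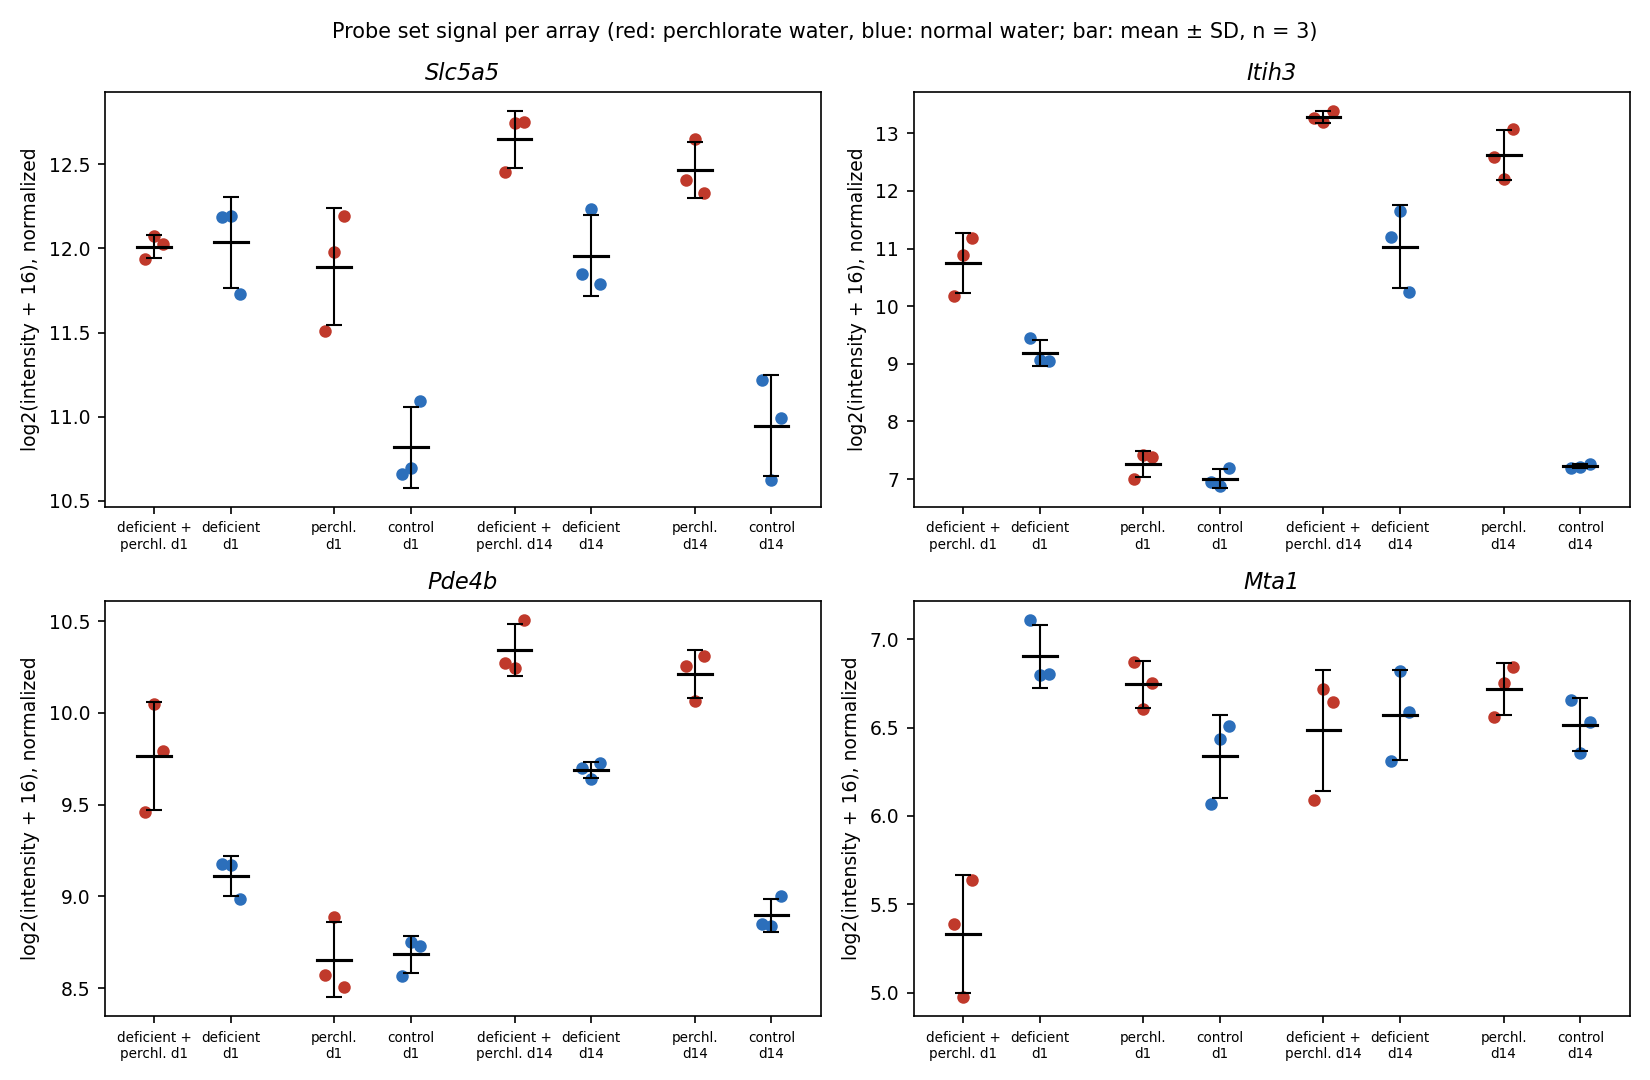
Normalized log2 signal of Slc5a5, Itih3, Pde4b and Mta1 on each of the 24 arrays, by group, with perchlorate water in red, normal water in blue, and black bars for the mean and SD of 3 arrays. With diet plus perchlorate at day 1, Slc5a5 reads 11.94 to 12.07 beside 11.73 to 12.19 with diet alone, while Itih3 reads 10.17 to 11.19 beside 9.06 to 9.44.

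The other machinery of hormone synthesis gave no call. Of the 20 genes listed for hormone synthesis and iodide handling, 14 were measured, 7 higher and 7 lower, with a median log2 fold change of 0.02 against -0.00 over all 14217 genes. None of the 14 separated the groups, where 6.7% of all genes were higher and 7.26% lower without overlap. Tg, the thyroglobulin gene, measured 13.89, 13.48 and 13.62 with diet plus perchlorate and 13.75, 13.84 and 13.91 with diet (-0.17, SE 0.11). Duox2, which makes the hydrogen peroxide, measured 11.49, 11.84 and 11.11 against 10.89, 11.38 and 11.14 (0.34, SE 0.22). For both genes the groups overlap. Iyd, which recovers iodide from iodotyrosines, gave 0.16 (SE 0.13), and Duoxa1, the maturation factor of Duox1, gave -0.19 (SE 0.26). The deiodinase Dio1 varied widely within the groups, at 11.86, 10.56 and 11.01 with diet plus perchlorate and 11.70, 10.44 and 10.55 with diet, and gave 0.25 (SE 0.46). Dio2 (0.23), the anion channel gene Ano1 (-0.03), the iodide exporter Slc26a4 (0.06), the thyroid hormone transporter Slc16a10 (-0.26), and the channel genes Kcne2 (-0.25), Kcnq1 (0.17), Cftr (-0.38) and Clcn5 (0.13) completed the list.

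The labelled tissue was borne out by its defining genes, with Tg at 13.48 to 13.91, Foxe1 at 12.80 to 13.26, Pax8 at 12.25 to 12.73 and Nkx2-1 at 10.62 to 11.19 over the 6 arrays. The 13 genes of thyroid transcription factors and follicular identity had a median of 0.00, with 7 higher, 6 lower and 0 separating the groups.

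The receptor and cyclic AMP list held 20 measured genes, 11 higher and 9 lower, with a median of 0.03 and 0 calls. The phosphodiesterase Pde4b, which degrades cyclic AMP, measured 9.46, 10.05 and 9.79 with diet plus perchlorate, against 9.18, 9.17 and 8.98 with diet. All 3 diet plus perchlorate arrays were above the diet arrays, but the gene was named partly for this absence of overlap. The difference of 0.66 (SE 0.15) did not pass (adjusted p = 0.248). Its other probe set, dimmer, overlapped between the groups (0.18, SE 0.37). Perchlorate on the normal diet at day 1 gave -0.03 for Pde4b, and at day 14 it gave 0.65 on the deficient diet and 1.31 on the normal diet. The related Pde4d measured 8.69, 8.56 and 8.26 against 7.78, 7.85 and 7.91 with diet, again without overlap (0.65, SE 0.22, adjusted p = 0.675), and 2 of its 3 probe sets separated the groups in that direction. Tshr, the TSH receptor gene, measured 10.66, 10.50 and 10.05 with diet plus perchlorate and 10.05, 10.11 and 10.01 with diet (0.35, SE 0.30). Prkar1a, a regulatory subunit of protein kinase A, was the third member without overlap, at only 0.12 (SE 0.11). These 3 of 20 stand beside 6.7% of all genes that were higher without overlap. Gnas, the stimulatory G protein, gave -0.30 (SE 0.17).

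Beyond Mta1, the genes named in each direction include Itih3 and Pde4b. These genes have the smallest unadjusted p among genes above the 40th percentile of signal whose arrays did not overlap. Their separation was therefore a condition of the choice, and none passed. Il1b, the cytokine interleukin 1 beta, measured 6.91, 7.35 and 7.41 with diet plus perchlorate, against 6.18, 5.88 and 6.20 with diet (1.13, SE 0.22, adjusted p = 0.163). Tnfaip3, an inhibitor of NF-kB signalling, gave 0.72 (SE 0.17, adjusted p = 0.272), and Blnk, an adaptor of B cell receptor signalling, gave 0.72 (SE 0.14, adjusted p = 0.163). Il1b is faint, near the middle of all probe sets, while Tnfaip3 and Blnk are bright. Cmpk2, a nucleotide kinase induced by interferon, measured 10.28, 10.34 and 9.82 against 9.15, 9.5 and 9.25 with diet (0.85, SE 0.17, adjusted p = 0.163). Sp110, an interferon-induced nuclear body protein, gave 0.60 (SE 0.14). The others were Dnah1, an axonemal dynein (0.96), Ninl, a centrosomal protein (0.90), Pitpnm3 (0.76), the sterol exporter Abcg1 (0.73) and the cationic amino acid transporter Slc7a7 (0.69).

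Among the lower genes, Zhx2, a zinc finger and homeobox repressor, measured 7.86, 7.42 and 7.43 with diet plus perchlorate, against 8.5, 8.96 and 9.03 with diet (-1.26, SE 0.22, adjusted p = 0.105). Odc1, the first enzyme of polyamine synthesis, measured 10.99, 10.75 and 11.11 against 11.90, 11.75 and 11.49 with diet (-0.77, SE 0.15, adjusted p = 0.163). Rhoa, a small GTPase that controls the actin cytoskeleton, measured 11.03, 11.38 and 11.27 against 12.01, 11.92 and 11.64 with diet (-0.63, SE 0.13, adjusted p = 0.2). Both Rhoa probe sets separated the groups, the dimmer one at -0.99 (SE 0.24). Hk1, the first enzyme of glycolysis, gave -0.76 (SE 0.18), but its dim second probe set gave 0.24 (SE 0.26). The others were Cdc123, an assembly factor of translation initiation (-1.04), Slc35b1, an endoplasmic reticulum nucleotide transporter (-0.68), Gipc2 (-0.62), the glycosylation enzyme Mgat2 (-0.60), the mitochondrial protein C1qbp (-0.60), the RNA helicase Ddx39b (-0.57) and the proteasome subunit Psmb7 (-0.56). With perchlorate replicate 18 and control replicate 22 left out, Zhx2, C1qbp, Odc1, Rhoa, Hk1, Cdc123, Mgat2, Il1b, Blnk, Tnfaip3, Slc7a7 and Trim34 passed as well as Itih3 and Mta1.

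**Figure D2:**
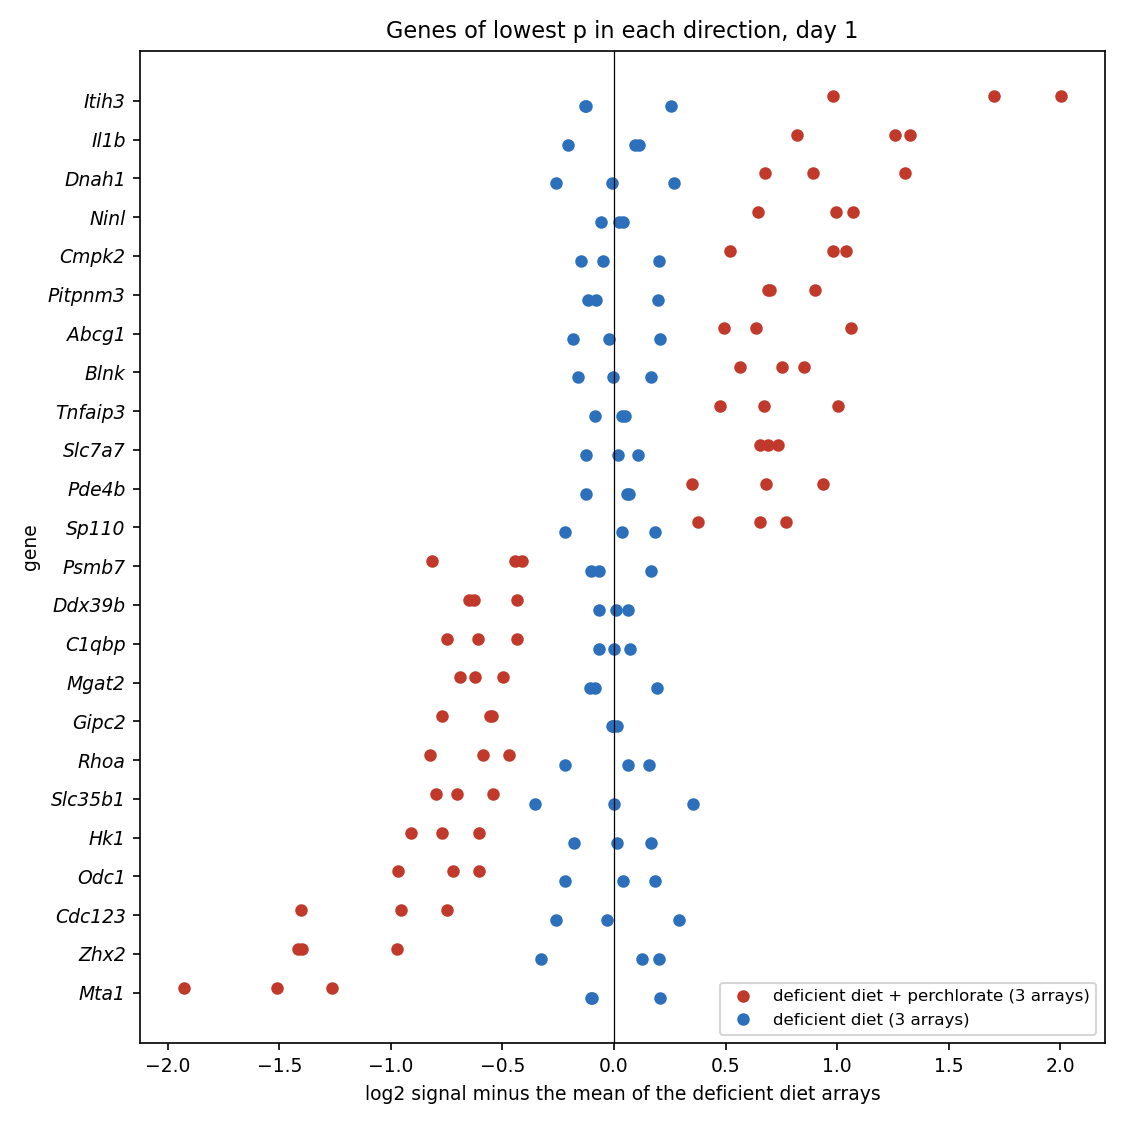
Signal of the 12 genes named in each direction on each array, as the log2 difference from the mean of the 3 diet arrays, with diet plus perchlorate arrays in red and diet arrays in blue. The groups do not overlap for any gene shown, since that was a condition of the choice, and among them only Mta1 passed the test.

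Genes induced by interferon tended to be higher with diet plus perchlorate, although none passed the test. Interferons switch on antiviral genes through the STAT and IRF transcription factors. Of 19 measured members, 17 were higher and 2 lower, with a median log2 fold change of 0.48. That median ranged from 0.40 to 0.57 over other scalings and from 0.34 to 0.66 when 1 of the 6 arrays was left out. The 5 members that separated the groups, all higher, were Ifi44, Irf1, Rsad2, Mx1 and Cxcl10 (5 of 19, against 6.7% of all genes). Averaged over the list, the signal was 8.51, 8.78 and 8.09 with diet plus perchlorate and 8.0, 8.02 and 8.03 with diet, so that diet plus perchlorate replicate 6 lay just above the diet arrays. In day 1 controls the average was 8.34, 8.23 and 8.5, within the range of the diet plus perchlorate arrays and above the diet arrays. The list median was -0.27 for perchlorate on the normal diet at day 1, 0.12 on the deficient diet at day 14 and 0.59 on the normal diet at day 14.

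Ifi44, an interferon-induced cytoplasmic protein, measured 9.11, 9.39 and 8.91 with diet plus perchlorate, against 8.36, 8.05 and 8.66 with diet (0.78, SE 0.27, adjusted p = 0.685). Rsad2, the antiviral enzyme viperin, measured 9.26, 9.16 and 8.63 against 7.79, 8.39 and 8.11 with diet (0.92, SE 0.40, adjusted p = 0.863). Mx1, an antiviral GTPase, measured 9.68, 9.40 and 8.76 against 8.58, 8.18 and 8.60 with diet (0.82, SE 0.38). In each of these genes all 3 diet plus perchlorate arrays were higher. Irf1, an interferon regulatory transcription factor, gave 0.48 (SE 0.20), and Gbp2 and Ifi27 were the members with a negative difference, at -0.10 and -0.06. Markers of immune cells were given beside these: of 15 lymphocyte markers, 11 were higher (median 0.26), and their summed deposited intensity ran from 1431 to 2233 with diet plus perchlorate and from 1197 to 1743 with diet. Cd3e, Cd2, Cd4, Cd8a, Cd8b, Cd79b and Ms4a1 lay below the 40th percentile of signal. Of 14 macrophage markers, 8 were higher (median 0.06), with sums of 7409 to 9048 against 5570 to 9300 with diet. Their median was -0.11 without diet replicate 9 and 0.26 without diet replicate 8. Of 8 MHC class II genes, 7 were lower (median -0.16, but 0.11 without diet replicate 8). The part of these lists in the interferon values was not tested.

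The proximal promoters of the interferon list were searched for a core of the interferon-stimulated response element, a pair of GAAA with any 2 bases between, on both strands of 300 bases, from 250 before to 50 after each gene's start in RefSeq (GRCr8). A promoter was given for 14 of the 19 members, and 9 of these (64.3%) held a match, against 3.92% of 33469 rat promoters. The list was made of genes known to respond to interferon. These shares therefore say nothing about the differences measured on the arrays. Those of Rsad2 (chr6:48788071-48788370, minus strand) and Ifi44 (chr2:243303791-243304090, minus strand) are shown because their genes separated the groups, with the matches in capitals, read here on the opposite strand.
Rsad2: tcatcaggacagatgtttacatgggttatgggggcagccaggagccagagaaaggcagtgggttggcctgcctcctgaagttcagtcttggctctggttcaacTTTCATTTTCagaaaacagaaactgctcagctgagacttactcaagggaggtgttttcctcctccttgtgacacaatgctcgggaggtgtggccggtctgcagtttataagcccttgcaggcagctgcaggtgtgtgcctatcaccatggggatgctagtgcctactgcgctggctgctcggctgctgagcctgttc
Ifi44: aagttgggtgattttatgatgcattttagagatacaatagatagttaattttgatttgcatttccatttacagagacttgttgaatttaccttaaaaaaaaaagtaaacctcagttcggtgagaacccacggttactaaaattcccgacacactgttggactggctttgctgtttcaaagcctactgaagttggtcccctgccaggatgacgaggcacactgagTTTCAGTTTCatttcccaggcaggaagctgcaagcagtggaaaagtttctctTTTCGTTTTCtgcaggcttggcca
Matches were also found for Gbp2 and Ifi27, the members with a negative difference. A match describes the letters of the window only.

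Chaperones and folding enzymes of the endoplasmic reticulum, the compartment where thyroglobulin folds, leaned the other way. When unfolded proteins accumulate there, the sensors IRE1, PERK and ATF6 raise these genes as the unfolded protein response. Of 27 measured members, 26 were lower with diet plus perchlorate and 1 higher, with a median of -0.15 and 0 calls. The median stayed between -0.17 and -0.10 over other scalings and between -0.20 and -0.14 when 1 array was left out, and 24 to 27 members were lower in all of these. Without overlap, 9 members were lower and 0 higher, beside 7.26% of all genes lower. That share rises with signal over all probe sets. It was 5.05% at a mean log2 signal under 6, 9.78% at 10 to 12 and 10.6% at 12 and over. The list average was 11.75, 11.83 and 11.83 with diet plus perchlorate and 12.11, 12.01 and 11.95 with diet, the diet arrays being higher in every case. Day 1 controls averaged 11.83, 11.73 and 11.93, so the diet plus perchlorate arrays lay within the control range and the diet arrays above it. The median for perchlorate on the normal diet was 0.01 at day 1 and -0.17 at day 14.

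Atf4, a transcription factor of the stress response, measured 10.76, 10.67 and 11.08 with diet plus perchlorate, against 11.38, 11.12 and 11.29 with diet (-0.42, SE 0.13, adjusted p = 0.613). Creld2, a secreted folding factor, measured 12.04, 12.38 and 12.43 against 13.07, 12.95 and 12.57 with diet (-0.58, SE 0.22). Sdf2l1, a partner of the chaperone BiP, gave -0.44 (SE 0.18). Each of these separated the groups, as did Manf (-0.39), Herpud1 (-0.49), Sel1l (-0.38), Dnajc3 (-0.28), Derl1 (-0.15) and Ero1a (-0.24). Hyou1, a large chaperone, gave -0.49 (SE 0.22) with overlap. Other members differed less: Hspa5, which encodes BiP, gave -0.08, Hsp90b1 -0.10, P4hb -0.04, and Canx, the 1 member that was higher, 0.03.

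The endoplasmic reticulum stress element, CCAAT and CCACG with any 9 bases between, was searched in the same windows on both strands. It was found in 8 of the 22 list members with a promoter (36.4%) and in 22 of 33469 rat promoters (0.066%). Among the 8 were Canx, the member that was higher, and Hspa5 and Hsp90b1, which differed little. Of the members that separated the groups, only Creld2 and Dnajc3 held a match. The matches of Creld2 (chr7:121789134-121789433, plus strand, match on the opposite strand) and Dnajc3 (chr15:102432417-102432716, plus strand) are shown in capitals because both genes separated the groups.
Creld2: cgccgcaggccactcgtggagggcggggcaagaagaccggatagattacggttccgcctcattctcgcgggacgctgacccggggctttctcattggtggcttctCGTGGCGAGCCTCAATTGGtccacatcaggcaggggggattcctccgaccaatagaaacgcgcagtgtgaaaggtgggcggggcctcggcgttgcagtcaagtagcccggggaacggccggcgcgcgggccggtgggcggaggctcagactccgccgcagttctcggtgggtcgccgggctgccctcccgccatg
Dnajc3: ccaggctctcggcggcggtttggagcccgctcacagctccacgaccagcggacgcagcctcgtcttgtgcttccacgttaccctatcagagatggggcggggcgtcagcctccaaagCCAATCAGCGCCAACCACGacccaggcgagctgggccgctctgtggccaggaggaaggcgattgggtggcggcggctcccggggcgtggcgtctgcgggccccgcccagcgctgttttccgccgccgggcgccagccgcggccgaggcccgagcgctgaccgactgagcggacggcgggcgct
Each list was searched for its own motif only, and nothing follows from a match about a factor's binding. As with the interferon list, the shares with a match do not depend on the array values.

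**Figure D3:**
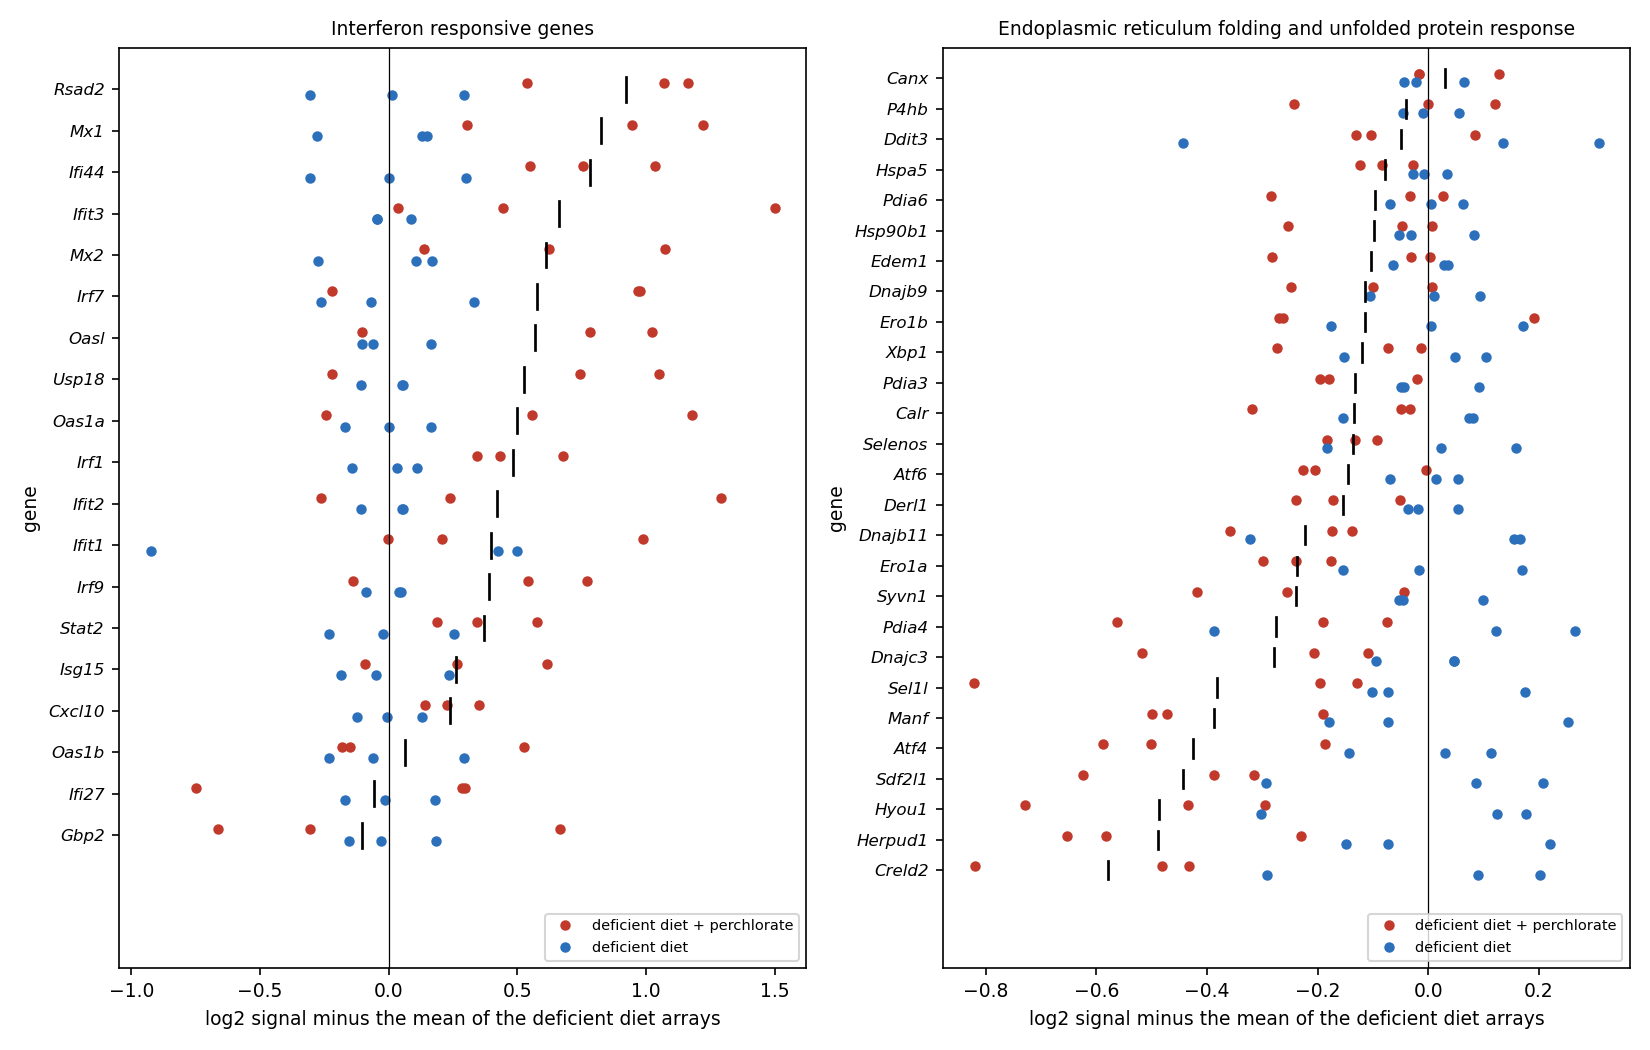
Signal of each measured member of the interferon list (left) and the endoplasmic reticulum folding list (right) on each array, as the log2 difference from the mean of the 3 diet arrays, with diet plus perchlorate arrays in red, diet arrays in blue and a black tick at the mean difference. On the left 17 of 19 ticks lie right of 0, and on the right 26 of 27 lie left of it.

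Genes of energy metabolism were also lower on balance, with 0 calls. All 22 measured subunits of the mitochondrial respiratory chain were lower with diet plus perchlorate, with a median of -0.17. The median was -0.22 to -0.09 when 1 array was left out, and 17 members were lower without diet plus perchlorate replicate 3, 18 without diet replicate 8 and 19 on the values as deposited. The 6 that separated the groups were Sdhc, Ndufv1, Uqcrfs1, Cox4i1, Sdha and Ndufb3, at -0.18 to -0.35 (against 7.26% of all genes lower without overlap). Among bright probe sets that share was larger, 9.78% at a mean log2 signal of 10 to 12 and 10.6% at 12 and over. Ndufv1, of complex I, measured 10.33, 10.49 and 10.60 against 11.06, 10.70 and 10.70 with diet (-0.35, SE 0.17), which shows how narrow these separations were. Glycolysis and lactate export had 16 of 18 members lower and a median of -0.24 (-0.27 to -0.18 without 1 array). Ldha, which makes lactate, measured 13.36, 13.23 and 13.56 against 13.82, 13.69 and 13.67 with diet (-0.34, SE 0.10, adjusted p = 0.541). Slc16a3, a lactate exporter, measured 8.59, 8.16 and 8.28 against 10.28, 9.37 and 9.06 with diet (-1.23, SE 0.43). Tpi1 (-0.51) and Aldoa (-0.26) also separated the groups, as 5 of the 18 members did, beside the same shares over all genes and bright probe sets. Perchlorate on the normal diet at day 1 gave medians of 0.07 for the respiratory chain and 0.02 for glycolysis.

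Ribosome biogenesis had 24 of 29 members lower (median -0.20, -0.29 to -0.10 without 1 array), with 8 lower and 2 higher without overlap, where 7.26% of all genes were lower and 6.7% higher. The median was -0.10 without diet plus perchlorate replicate 3 and -0.11 without diet replicate 8. Polr1a, the largest subunit of RNA polymerase I, gave -0.57 (SE 0.23), Nop56 gave -0.34 (SE 0.14), and Ubtf, the polymerase's upstream binding factor, gave 0.38 (SE 0.20). Cholesterol synthesis had 13 of 16 lower (median -0.17), with Mvk (-0.74) and Fdps (-0.22) separating the groups. Among 14 targets of NRF2, the transcription factor of the antioxidant response, 7 were lower and the median was -0.04. Gclc, which limits glutathione synthesis, measured 8.28, 8.26 and 8.28 with diet plus perchlorate, against 9.0, 8.74 and 9.11 with diet (-0.68, SE 0.22), and Txnrd1 gave -0.51 (SE 0.24), both without overlap.

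Immediate early genes, which answer a stimulus within minutes, had 16 of 24 members higher and a median of 0.13, which became -0.01 without diet plus perchlorate replicate 3, 0.07 without replicate 6 and 0.36 without replicate 2. Nr4a3 (0.74, SE 0.22), Atf3 (0.57, SE 0.32) and Jund (0.20) separated the groups (3 of 24, against 6.7% of all genes higher without overlap), while Fos measured 8.58, 10.48 and 10.04 against 8.22, 8.95 and 9.61 with diet. Mitosis genes had a median of 0.08 with 0 of 28 members separating the groups. It became -0.32 without diet plus perchlorate replicate 3, -0.13 without diet replicate 8 and -0.15 without diet replicate 12, but 0.38 without diet plus perchlorate replicate 2 and 0.41 without diet replicate 9. Genes of DNA replication were lower in 19 of 24 cases (median -0.22), again with 0 separating the groups, and that median was -0.04 without diet replicate 9 and -0.38 without diet replicate 12. The matrix and vessel lists depended on single arrays. The median was -0.06 for interstitial matrix (0.05 without diet plus perchlorate replicate 2, -0.24 without replicate 3), 0.08 for basement membrane (0.21 and -0.13) and 0.00 for endothelial markers (0.38 and -0.13). Angiogenesis ligands and receptors had 13 of 21 members lower and a median of -0.18, which became 0.06 without replicate 2 and -0.33 without replicate 3. At day 14, perchlorate on the deficient diet gave medians of 0.74 for interstitial matrix, 0.54 for basement membrane, 0.41 for endothelial markers and 0.17 for angiogenesis.

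Tissue that clings to the thyroid varied between arrays of both groups. Summed deposited intensity of 23 skeletal muscle markers was 48289, 11122 and 8221 with diet plus perchlorate and 6617, 6554 and 31280 with diet, and their median of 0.52 became -0.34 without diet plus perchlorate replicate 2, -0.10 without diet replicate 9 and 1.73 without diet replicate 12. The 17 adipocyte markers summed to 23391, 7406 and 20018 with diet plus perchlorate and 29997, 12461 and 12803 with diet, and their median of -0.53 became 0.23 without diet plus perchlorate replicate 3, -0.10 without diet replicate 8 and -0.89 without diet plus perchlorate replicate 2. The groups overlap for both lists, and 0 members of either separated the groups. C cell markers were lower in 13 of 18 cases, with a median of -0.19 that was -0.31 without diet plus perchlorate replicate 2, -0.09 without replicate 6 and -0.05 without diet replicate 12. Parathyroid markers were lower in all 5 cases, with a median of -0.19 that was -0.32 without diet replicate 8 and -0.06 without diet replicate 9. Their part in the other results was not tested.

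**Figure D4:**
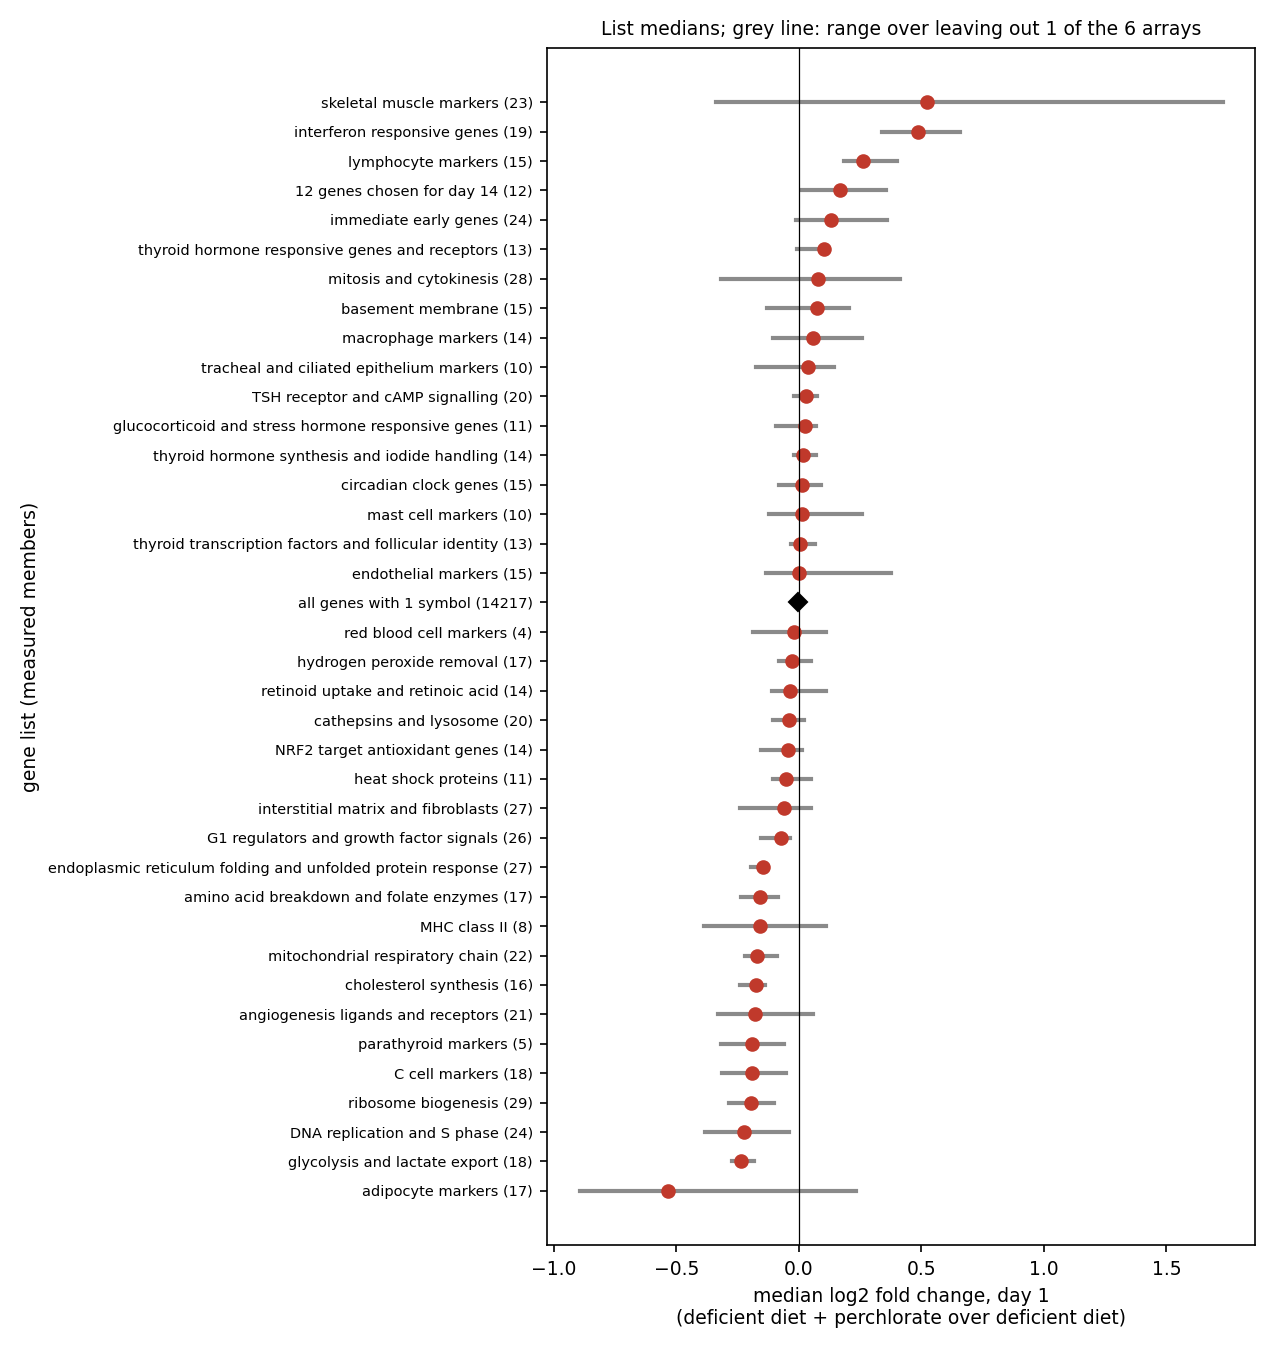
Median log2 fold change of each gene list, diet plus perchlorate over diet at day 1 (points, with the number of measured members in brackets), with the range of that median when 1 of the 6 arrays is left out (grey lines) and all genes as the black diamond. The interferon median of 0.48 and the glycolysis median of -0.24 keep their sign over the whole range, while those of skeletal muscle, adipocytes and mitosis cross 0.

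Whether 1 day of perchlorate differed between the diets was tested as an interaction, the perchlorate difference on the deficient diet minus that on the normal diet. No probe set passed in limma (0 of 31042, 0%), with 2430 at an unadjusted p under 0.05 (7.83%). Without perchlorate replicate 18 and control replicate 22 there was 1 call. The lowest adjusted p, 0.0619, belonged to Mta1 and Gpc4. Gpc4, a glypican of the cell surface, measured 11.58, 11.89 and 11.53 with diet plus perchlorate and 10.80, 11.44 and 11.06 with diet. On the normal diet it measured 10.54, 10.67 and 10.31 with perchlorate and 11.25, 11.37 and 11.63 in controls. The groups separate in opposite directions on the 2 diets. On the normal diet 3.66% of all probe sets were higher and 4.16% lower without overlap, and for Gpc4 the interaction of 1.47 (SE 0.24) passed under 4 of 22 alternatives. For Mta1 the interaction was -1.97 (SE 0.31).

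The other genes named for the interaction, all short of the threshold, were Trim34 (1.44), a member of the tripartite motif family, the organic anion transporter Slco1a4 (1.10), the lipid enzyme Agpat3 (0.96), the chromatin protein Smchd1 (0.94) and the pyrophosphate transporter Ankh (0.87). In the negative direction they were Borcs6 (-1.70), Tmem106c (-1.59), Zhx2 (-1.32), Slc26a10 (-1.25) and Sil1 (-0.73), the nucleotide exchange factor of BiP. Their adjusted p ran from 0.329 to 0.418.

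The same diet was then compared across days, as the perchlorate difference at day 14 minus that at day 1. No probe set passed in limma (0 of 31042, 0%), with 1602 at an unadjusted p under 0.05 (5.16%). At day 14 itself, perchlorate on the deficient diet gave 19 calls (0.0612%). Igfbp2, which binds insulin-like growth factors, measured 9.45, 9.98 and 10.25 with diet plus perchlorate at day 1 and 10.82, 10.27 and 10.41 with diet. At day 14 it measured 11.99, 11.50 and 11.59 with diet plus perchlorate and 10.42, 11.10 and 10.30 with diet, and the difference between the days was 1.69 (SE 0.34, adjusted p = 0.565). Perchlorate arrays were thus below the diet arrays at day 1 and above them at day 14. Ccn5 (1.99), Mta1 (1.48), the calcium-binding annexin Anxa6 (1.41), the Wnt inhibitor Sfrp1 (1.39) and the centromere protein Cenpn (1.11) were named in the same direction. Those named in the other were Defb1, an epithelial defensin (-2.74), the clock output factor Hlf (-1.60), Selenbp1 (-1.46), Iftap (-1.11), Cmpk2 (-1.0) and Kctd14 (-0.83). Their adjusted p ran from 0.565 to 0.573.

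The probe sets called after 14 days of perchlorate on the normal diet were looked up at day 1 on the deficient diet, which shares no arrays with that comparison. Of the 437 that were higher at day 14 (1.41% of all probe sets), 326 (74.6%) were higher here, against 49.9% of all probe sets. The median of the 437 was 0.16, and 62 (14.2%) were higher without overlap, against 6.38% of all probe sets. Of the 87 that were lower (0.28%), 59 (67.8%) were lower here, against 50.1% of all probe sets. The median of the 87 was -0.20, and 19 (21.8%) were lower without overlap, against 6.86% of all probe sets. On the normal diet at day 1, 52.2% of the 437 were higher (48.1% without replicates 18 and 22) and 69% of the 87 were lower. Without overlap, 33 (7.55%) of the 437 were higher there, against 3.66% of all probe sets, and 12 (13.8%) of the 87 lower, against 4.16%. On the deficient diet at day 14, 95.9% of the 437 were higher and 89.7% of the 87 lower, with medians of 0.55 and -0.43. These shares are descriptions over probe sets, which are not independent of each other. Those on the deficient diet at day 1 were not computed again with single arrays left out.

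**Figure D5:**
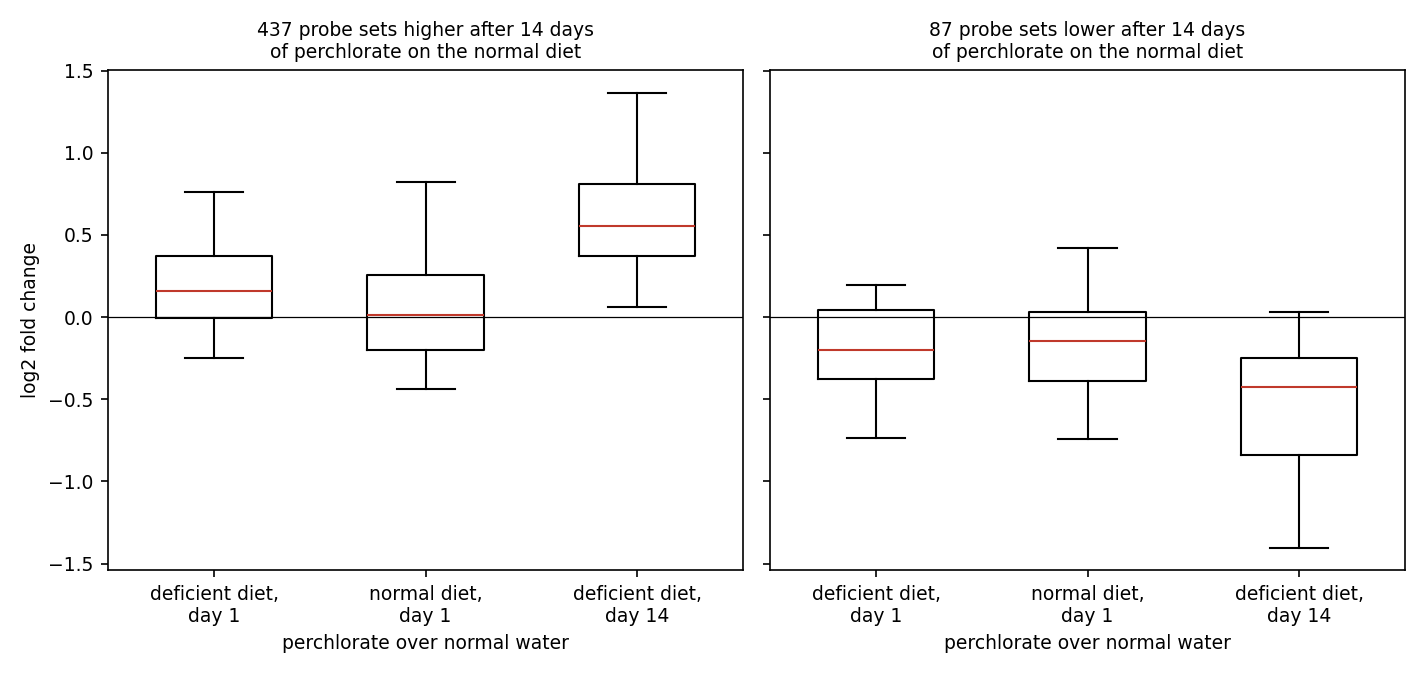
Log2 fold changes, perchlorate over normal water, of the 437 probe sets higher (left) and the 87 lower (right) after 14 days of perchlorate on the normal diet, in 3 other comparisons that share no arrays with that one; boxes span the quartiles, red lines the medians and whiskers the central 90%. On the deficient diet at day 1 the medians are 0.16 and -0.20, and at day 14 they are 0.55 and -0.43.

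Of 12 genes chosen for their differences after 14 days of perchlorate in these data, 6 separated the groups at day 1 on the deficient diet. They were 4 higher and 2 lower, where 6.7% of all genes were higher and 7.26% lower without overlap. The 12 came from an earlier account of these data, so the choice may not be independent of the arrays compared here. Besides Itih3 and Slc16a3, these were Ninl (0.90, SE 0.21), Mab21l3 (0.67, SE 0.20), Aspg (0.86, SE 0.36) and Defb1 (-0.71, SE 0.43). Aspg, an asparaginase, measured 7.79, 8.60 and 8.82 with diet plus perchlorate, against 7.56, 7.57 and 7.5 with diet. Mab21l3 measured 9.82, 9.81 and 10.16 against 9.31, 8.99 and 9.48 with diet. Smtnl2 (1.00, SE 0.44), the retinoid uptake gene Stra6 (-0.62, SE 0.58), the retinoic acid enzyme Aldh1a3 (-0.53, SE 0.43), Vwa1 (0.31), C13h1orf116 (-0.13) and Tmem213 (0.02) overlapped between the groups. At day 14 on the deficient diet Aldh1a3 gave -1.83, Defb1 -3.45 and Smtnl2 1.85.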

How the data were processed

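Total RNA from rat thyroids was hybridised to 24 expression arrays in 8 groups of 3, each array placed by its title. The authors deposited 1 intensity for each probe set on a linear scale, and the submitters' processing notes name GCOS as the software; its version, settings and scaling target are not given in the sources used here. Of 31099 probe sets, 57 array controls were left out. No detection calls were used, so signal over background is not known here, and precision is limited by the number of arrays.

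Values were computed as log2(intensity + 16), which understates changes of dim probe sets, and quantile normalized over the 24 arrays. limma 3.58.1 in R 4.3.3 was fitted with 1 mean per group, 16 residual degrees of freedom, eBayes with a mean-variance trend, and two-sided tests adjusted by Benjamini-Hochberg over 31042 probe sets. Every adjusted p is from limma unless another test is named. The same fit gave the interaction and day contrasts. The fit was also run on simulated data with independent normal errors and no outlying arrays. That run cannot show how arrays that stand apart affect the calls.

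Of the probe sets tested, 20826 carried 1 symbol, 436 several and 9780 none in the platform's annotation, giving 14217 genes, and 20758 of the named probe sets matched RefSeq (GRCr8). Only promoters have coordinates, from GRCr8, because the annotation names no build.

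Named genes were the 12 largest differences in each direction that passed without overlap, filled by smallest unadjusted p among genes without overlap above the 40th percentile of signal (6 in each direction for the contrasts of contrasts), with all measured hormone synthesis genes and the 4 members of smallest p of each other list. Further list members in the text (marker and abundant genes, the remaining members without overlap, such as Mx1, Cxcl10, Manf, Herpud1, Cox4i1, Ubtf and Jund, and list members with the opposite sign) lie outside this rule and were chosen after their values were seen. The 38 lists held 691 genes, of which 619 were measured. The members, lists and rules were chosen with earlier results of these data known. Alternatives covered scaling, pseudocount, filter, arrays in the fit, weights, robust variance, gene means and leaving out each array.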

Additional observations from a re-analysis of the deposited data

Results flagged for a closer look

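For 12 named genes, every diet plus perchlorate array lay on 1 side of every diet array while, on the normal diet at day 1, every perchlorate array lay on the opposite side of every control array. Named genes were partly chosen by their interaction p or by the absence of overlap on the deficient diet, so such patterns were favoured by the choice. Over all probe sets the same happened for 220 of 31042 (0.709%). The interaction test passed for 0 of the 12.

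Those higher on the deficient diet and lower on the normal diet were Gpc4 (0.56 and -0.91, interaction 1.47), Ifi44 (0.78 and -0.55, interaction 1.33), Agpat3 (0.57 and -0.39, interaction 0.96), Smchd1 (0.51 and -0.44, interaction 0.94) and Ankh (0.55 and -0.32, interaction 0.87). Those lower on the deficient diet and higher on the normal diet were Mta1 (-1.57 and 0.41, interaction -1.97), Borcs6 (-0.68 and 1.02, interaction -1.70), Tmem106c (-0.78 and 0.82, interaction -1.59), Sod3 (-0.36 and 0.61, interaction -0.97), Sdf2l1 (-0.44 and 0.50, interaction -0.95), Sil1 (-0.28 and 0.45, interaction -0.73) and Cenpn (-0.46 and 0.22, interaction -0.68). All values are log2 fold changes of perchlorate over normal water, the deficient diet first. The adjusted p of the interaction was 0.0619 for Mta1 and for Gpc4. Perchlorate replicate 18, which stood apart from the other arrays, is 1 of the 3 perchlorate arrays on the normal diet.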

How the results depend on the processing

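The count of calls for diet plus perchlorate against diet was 1 after median centring, with pseudocounts of 1 or 64, without dim probe sets and with robust variance. It was 0 on the values as deposited, in a fit of only the 6 arrays (2226 at an unadjusted p under 0.05) and on gene means. It was 38 without perchlorate replicate 18 and control replicate 22 (14 higher, 24 lower) and 21 with array quality weights (10 higher, 11 lower), and 0 to 3 when 1 of the 6 arrays was left out. The interaction count of 0 became 1 after median centring, 2 without dim probe sets, 1 without the 2 arrays, 3 with weights and 1 with robust variance, and 0 to 2 when 1 array was left out. The day 14 minus day 1 count stayed 0 except for 1 call without diet plus perchlorate replicate 3, a range of 0 to 1. Mta1 was called under 10 of 16 alternatives, with log2 fold changes of -2.07 to -0.81, and 15 of the 196 named genes were called under at least 1 alternative of this comparison. In the interaction, Gpc4 was called under 4 alternatives and Mta1 under 2 of 22. No called result changed sign. On the values as deposited, the median of all probe sets shifted by 0.06 in the main comparison, 0.12 in the interaction and -0.16 between the days. Leaving out 1 array leaves 2 in its group, whose spread is pooled with the other groups. The medians of the lists without 1 array and under other scalings, and the day 1 normal diet shares without replicates 18 and 22, were added after seeing the data. No paired analysis was possible because the groups share no replicate numbers. The cause of these changes was not tested.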

Other observations

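Several lists had small medians and are given as values. Among 15 circadian clock genes, 8 were higher and 7 lower with diet plus perchlorate (median 0.01). That median hides larger differences in both directions. Per2 gave 0.72 and Cry1 0.45, while Nr1d1 gave -0.67 and Nr1d2 -0.50. Their relation to the time of collection was not tested. The 17 genes for removal of hydrogen peroxide had 8 higher and 9 lower (median -0.03), with Gpx2 at 10.42, 11.08 and 10.67 against 12.41, 11.02 and 10.71 with diet. The 20 cathepsin and lysosome genes had a median of -0.04, and the 14 genes of retinoid uptake and retinoic acid one of -0.04. Growth factor signals included Igf2 (-0.46, SE 0.21) and Igf1 (-0.38, SE 0.27), and Igf2 measured 7.43, 7.97 and 7.89 with diet plus perchlorate and 8.46, 8.0 and 8.22 with diet. Esm1, an endothelial proteoglycan, measured 8.35, 8.32 and 8.53 with diet plus perchlorate and 8.22, 9.52 and 10.13 with diet (-0.90, SE 0.37), with overlap through diet replicate 8. None of these differences passed the test.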
